A study of Mus musculus with 6 samples.

Results

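Kinesins are the motor proteins that walk along microtubules or take them apart, and they were examined here as a family in mouse spleen 24 h after total body irradiation. The members are all genes whose probe name on the array begins with Kif and a digit. That rule found 38 kinesin genes among 34741 genes with a probe, read by 62 of 55681 distinct probes. The genes were divided by their known work into 12 mitotic kinesins, 13 transport kinesins and 13 others, and the last class includes Kif4-ps, a pseudogene of Kif4.

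The mice were of the congenic strain B10.BALB-16.C2A, and RNA came from whole spleens homogenised without sorting. The unirradiated group (0 cGy) held resting mice, and the irradiated group (900 cGy) was taken 24 h after the dose. Each group has 3 one-colour Agilent arrays, and each array is a pool of 3 mice, so n = 3 pools throughout and the spread between single animals was not measured. Age and sex are not given in the sources used here.

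In a dividing cell, mitotic kinesins build the bipolar spindle, move and hold chromosomes, trim microtubule ends and organise the midzone where the cell is cut apart. Their transcripts are made mainly in the late part of the cell cycle, so they mark dividing cells; in the mouse spleen such cells include erythroid precursors of the red pulp and stimulated B cells. Transport kinesins carry mitochondria, endosomes and vesicles outward along microtubules, and the kinesin-2 motor also carries cargo along cilia. The remaining members include regulators of cilia and of Hedgehog signalling, microtubule depolymerases and atypical members.

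Promoters of cell cycle genes often hold a cell cycle gene homology region, an element with the letters TTTGAA near the transcription start, which is bound by complexes built on the MuvB core, and many also hold a CCAAT box. Because the mitotic kinesins moved together in these arrays, their promoters were searched for TTTGAA and CCAAT on both strands. RefSeq promoters of build GRCm38.p6 were matched by symbol for 31 of the 38 kinesins, 35 promoters in all. The mitotic promoters are not the same set as the mitotic kinesins tested for a change. Kif20a had no promoter to search, and Kif2b, which was too dim to test, is included. In the 100 bases from 70 before to 30 after the annotated start, 7 of 11 mitotic kinesin promoters held TTTGAA (63.6%), against 1 of 12 transport kinesin promoters (8.33%), 1 of 12 promoters of other kinesins (8.33%) and 5.11% of the 32851 promoters in the table. The transport promoter with the match belongs to Kif1a, the kinesin with the largest rise, which has a further promoter without it in this window. The 7 mitotic promoters with TTTGAA are shown first. For contrast they are followed by the promoters of Kif3a and Kif1c, transport kinesins without TTTGAA in the window. Each runs 5′ to 3′ on the gene's own strand, and capitals mark TTTGAA and CCAAT, which read TTCAAA and ATTGG where they lie on the opposite strand.

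Kif11, chr19:37376312-37376411, plus strand: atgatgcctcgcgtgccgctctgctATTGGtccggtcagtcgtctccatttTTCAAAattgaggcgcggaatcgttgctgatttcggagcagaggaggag
Kif15, chr9:122951011-122951110, plus strand: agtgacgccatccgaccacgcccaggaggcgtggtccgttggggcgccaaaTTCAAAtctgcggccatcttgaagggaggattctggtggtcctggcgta
Kif18b, chr11:102925095-102925194, minus strand: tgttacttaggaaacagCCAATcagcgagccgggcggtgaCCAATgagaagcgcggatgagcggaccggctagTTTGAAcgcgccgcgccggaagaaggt
Kif20b, chr19:34922288-34922387, plus strand: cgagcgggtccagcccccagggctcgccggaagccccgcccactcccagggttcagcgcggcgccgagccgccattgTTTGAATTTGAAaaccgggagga
Kif22, chr7:127042391-127042490, minus strand: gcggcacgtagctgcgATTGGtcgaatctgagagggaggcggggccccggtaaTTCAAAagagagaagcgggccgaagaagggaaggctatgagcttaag
Kif23, chr9:61946770-61946869, minus strand: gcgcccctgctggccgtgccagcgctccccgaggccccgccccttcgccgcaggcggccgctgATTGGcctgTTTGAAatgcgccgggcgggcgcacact
Kif4, chrX:100625995-100626094, plus strand: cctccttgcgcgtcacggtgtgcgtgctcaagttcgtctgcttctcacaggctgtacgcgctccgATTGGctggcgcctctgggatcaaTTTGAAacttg
Kif3a, chr11:53567299-53567398, plus strand: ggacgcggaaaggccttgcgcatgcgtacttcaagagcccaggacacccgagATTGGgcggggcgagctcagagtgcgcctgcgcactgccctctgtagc
Kif1c, chr11:70700478-70700577, plus strand: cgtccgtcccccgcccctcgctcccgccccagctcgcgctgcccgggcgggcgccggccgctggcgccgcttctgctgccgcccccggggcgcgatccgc

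In Kif11 and Kif15 the TTTGAA match began 19 bases before the start, and in Kif22 it began 17 before. In Kif23, Kif18b, Kif20b and Kif4 it lay just after the start, beginning at base 3, 4, 8 and 20 when the start is base 1, and Kif20b carries a further copy directly behind it. A CCAAT match stood in 6 of the 11 mitotic core promoters (54.5%), that of Kif2b among them. It stood in 2 of 12 transport promoters (16.7%) and in 16.1% of all promoters. Over the full 300 bases from 250 before to 50 after the start, TTTGAA was present in 9 of 11 mitotic promoters (81.8%). The additional ones were Kif14 and Kif2c. It was present in 8.33% of transport promoters, 16.7% of promoters of other kinesins and 17.9% of all. Kif18a and Kif2b had no TTTGAA in the 300 bases. TTCGAA, a variant of the element, was found near the start of Kif24 and in 1.56% of all 300-base promoters. These matches describe letters in a window and are not measured binding sites.

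Signals are given as log2 of the processed spot intensity minus the log2 of the array's 75th percentile, so a value of 0 means a spot as bright as the 75th percentile of its array. Values of different genes come from different probes and are not compared with each other as levels. Each change is the irradiated mean minus the unirradiated mean with its standard error (SE), tested with limma over 26642 genes and adjusted by the Benjamini-Hochberg method, with a gene called at an adjusted p under 0.05. Between 39034 and 41266 probes per array were well above background and none was saturated. The third unirradiated pool stood apart from the others, with array means of the dividing-cell markers (Mki67, Top2a, Ccna2, Pcna, Mcm5) of 4.65, 4.37 and 3.21 over the unirradiated arrays. Expected spleen populations were present in the unirradiated arrays, where all 5 B cell markers and all 8 erythroid markers were measured, and both lists were lower after irradiation in every member, with median log2 changes of -2.82 and -6.36. In bulk RNA, fewer cells of a type and less RNA per cell cannot be told apart.

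Of the 38 kinesins, 36 were tested, and 35 of those were well above background on all 6 arrays. Kif26b reached that level on 2 of 3 unirradiated arrays. Kif2b, a mitotic depolymerase, and Kif27, a relative of Kif7 tied to motile cilia, were not well above background on any array and were not tested. Irradiation left 12 kinesins higher, 14 lower and 10 not past the threshold, beside 59.3% of all genes tested that were called in either direction (28.3% higher and 31.0% lower). The median log2 change was 0.07 over the tested kinesins and -0.06 over all genes. That middle value hides a split by role, since the median was -2.43 for the mitotic kinesins, 0.52 for the transport kinesins and 0.26 for the others. The roles were assigned with earlier results of these data known, so the split is a description. Kif2a, which acts at spindle poles and also in cells that do not divide, was placed among the others, and its log2 change was -0.82. In the plot of changes by role, the mitotic members occupy a range that no transport or other kinesin enters apart from Kif21b.

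**Figure D1:**
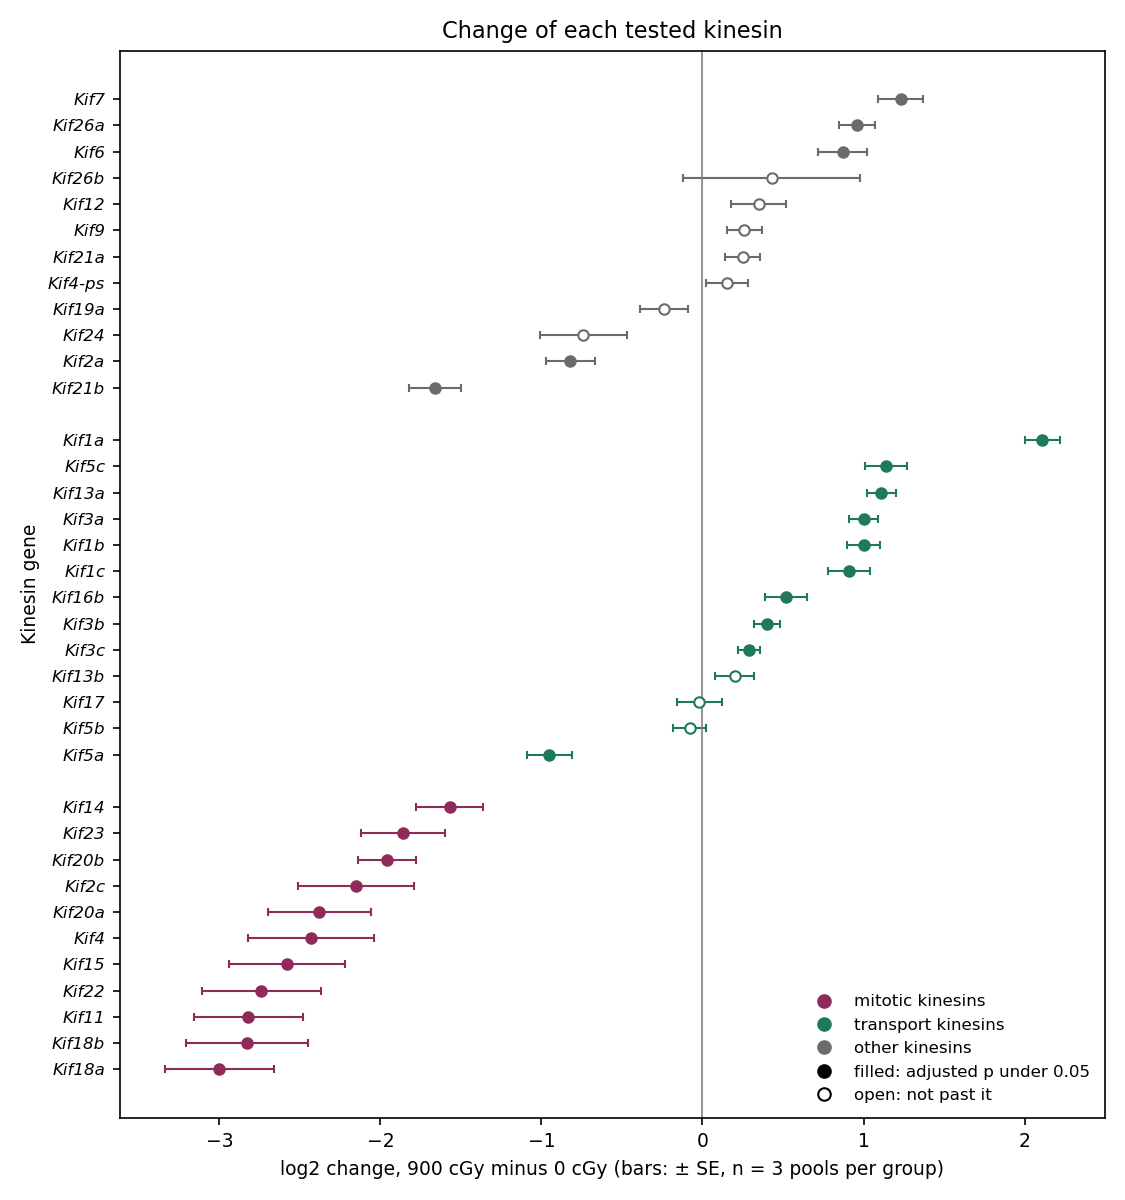
Log2 change of each of the 36 tested kinesins (x axis, 900 cGy minus 0 cGy, log2 units) by gene (y axis), grouped by role. Points are estimates with bars of ± SE (n = 3 pools per group), filled where the adjusted p is under 0.05. The 11 mitotic kinesins lie between -3.00 and -1.57, and the transport kinesins between -0.95 and 2.11.

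All 11 mitotic kinesins tested fell after irradiation, each by more than 2-fold, while 9.34% of all genes were called lower by at least 2-fold. Their log2 changes ran from -3.00 to -1.57, which is 7.98-fold to 2.98-fold lower, with SE from 0.18 to 0.39 and adjusted p from 0.000216 to 0.00251. For every member the 3 irradiated arrays lay below the 3 unirradiated arrays, a separation seen in that direction for 35.7% of all genes. The gap between the lowest unirradiated and the highest irradiated array was between 0.93 (Kif14) and 2.10 (Kif18a) log2 units. Averaged over the 11 genes, the unirradiated arrays measured 0.60, 0.34 and -0.64, and the irradiated arrays -2.21, -2.34 and -2.33.

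The motors that build and balance the spindle come first. Kif11, the kinesin-5 that slides opposed microtubules to push the spindle poles apart, measured 0.85, 0.39 and -0.56 on the unirradiated arrays and -2.59, -2.56 and -2.64 on the irradiated ones. The groups were far apart and the irradiated pools nearly equal (SD 0.04), giving a log2 change of -2.82 (SE 0.34, adjusted p 0.000612), or 7.07-fold lower. Kif15, a kinesin-12 that helps to keep the spindle bipolar, measured 0.06, -0.22 and -1.39 unirradiated and -3.05, -3.13 and -3.11 irradiated. It was 5.97-fold lower, with a log2 change of -2.58 (SE 0.36, adjusted p 0.00118), and again the third unirradiated pool was the lowest of its group.

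Kinesins that act on chromosomes and on microtubule ends fell as well. Kif22, a chromokinesin that pushes chromosome arms away from the poles, read 3.63, 3.39 and 2.15 before irradiation and 0.40, 0.28 and 0.26 after it. Its groups were separate, and its log2 change was -2.74 (SE 0.37, adjusted p 0.00106), or 6.67-fold lower. Kif4, a chromokinesin that works with condensin and later sets midzone length with Prc1, read 0.81, 0.40 and -0.77 against -2.20, -2.22 and -2.44. The change of -2.43 (SE 0.39, adjusted p 0.00203) amounts to 5.41-fold. The probe of the Kif4 pseudogene, Kif4-ps, did not pass the threshold, with -4.75, -4.92 and -4.63 unirradiated and -4.83, -4.49 and -4.52 irradiated (log2 change 0.15, SE 0.13, adjusted p 0.347).

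Kif18a, a kinesin-8 that dampens chromosome oscillation at the metaphase plate, measured -0.80, -1.14 and -2.17 unirradiated and -4.52, -4.27 and -4.30 irradiated. The fall of 3.00 on the log2 scale (SE 0.34, adjusted p 0.000507) was 7.98-fold. Kif18b, its relative that trims astral microtubules, gave -0.14, -0.42 and -1.55 against -3.18, -3.68 and -3.74, a log2 change of -2.83 (SE 0.38, adjusted p 0.000958). In the main fit these kinesin-8 motors, with Kif11, had the 3 largest changes of the family. That order depends on how background is handled. With normexp background correction Kif18a changed by -2.12 and Kif18b by -2.25, less than Kif22 (-2.67) and Kif11 (-2.46). Kif2c, a kinesin-13 that removes tubulin from microtubule ends at kinetochores, gave -0.82, -1.05 and -2.11 against -3.13, -3.80 and -3.49. Its groups were separate but its irradiated pools were the most spread of the mitotic set (SD 0.34), and its log2 change was -2.15 (SE 0.36, adjusted p 0.00251).

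The motors of the midzone and of cytokinesis fell too. Kif20a, which brings the chromosomal passenger complex to the midzone, measured 2.35, 2.26 and 1.12 unirradiated and -0.41, -0.49 and -0.50 irradiated (log2 change -2.38, SE 0.32, adjusted p 0.00102). Kif20b, which acts in the last steps of cytokinesis, gave 1.12, 0.89 and 0.44 against -1.06, -1.23 and -1.16. Its spread was the smallest of the mitotic set before irradiation (SD 0.35), and its change of -1.96 had the smallest SE, 0.18, and the smallest adjusted p, 0.000216. Kif23, the motor subunit of centralspindlin, gave 1.5, 1.15 and 0.46 against -0.72, -0.85 and -0.90, a log2 change of -1.86 (SE 0.26, adjusted p 0.00112). Kif14, a cytokinesis motor that binds Prc1 and citron kinase, gave -1.98, -1.93 and -2.67 against -3.86, -3.83 and -3.60. That change, -1.57 (SE 0.21, adjusted p 0.00102), was the smallest of the 11 and still 2.98-fold. Whether these members differ from each other in size of change was not tested.

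**Figure D2:**
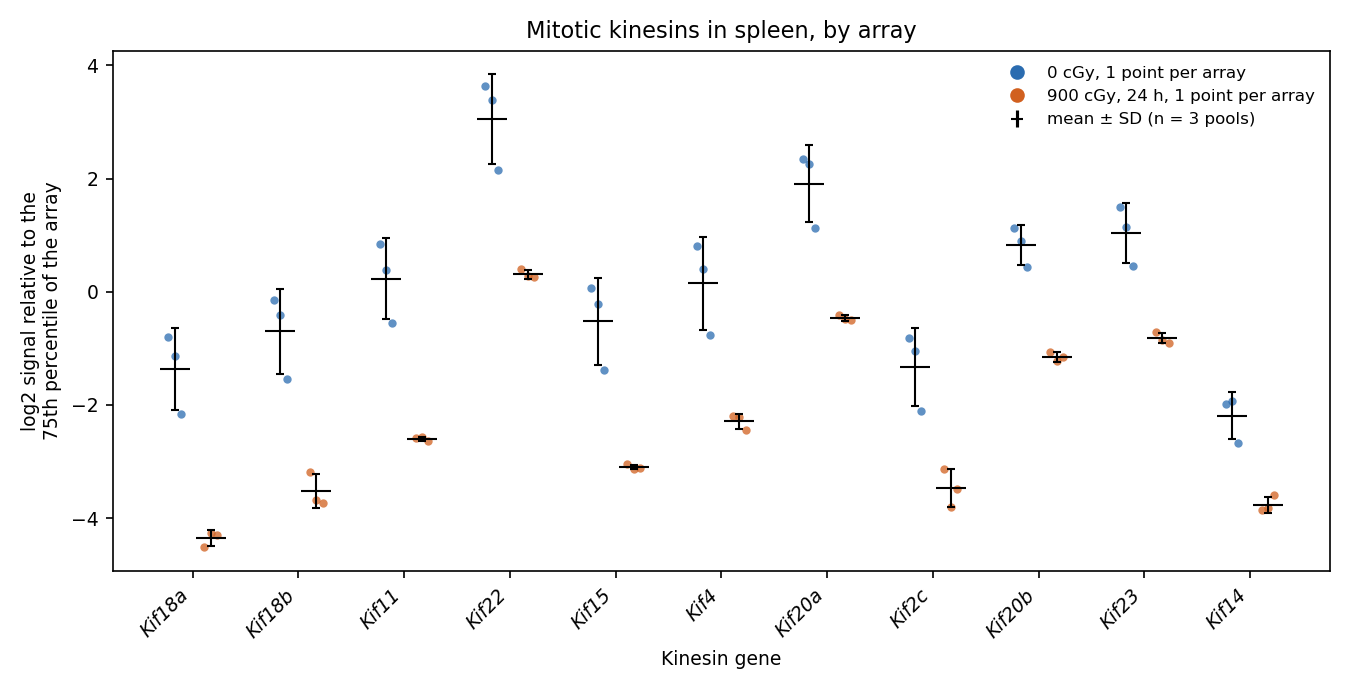
Signal in log2 units with the 75th percentile of each array set to 0 (y axis) for the 11 tested mitotic kinesins (x axis), with 1 point per array, the mean and SD (n = 3 pools). In every gene the 3 irradiated points lie below the 3 unirradiated ones, and the third unirradiated pool is the lowest of its group.

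The plot by array shows that the mitotic kinesins share more than the direction of change. In all 11 the third unirradiated pool was the lowest of the unirradiated arrays, by 0.57 to 1.38 log2 units below the mean of the other two. SDs among unirradiated pools (0.35 to 0.82) were wider than among irradiated pools (0.04 to 0.34). The same pool was the lowest of its group in all 5 dividing-cell markers, all 8 erythroid markers and 17 of 19 partners of mitotic kinesins, and in 0 of 5 B cell and 0 of 5 T cell markers. The list means of that pool against the other 2 differed by -1.11 for mitotic kinesins, -1.30 for dividing-cell markers, -1.45 for erythroid markers and 0.35 for B cell markers. Without it, the mitotic changes ran from -3.40 to -1.81 and all 11 remained called. On the first row of the slide alone, which holds the 3 unirradiated arrays and 1 irradiated array, the changes ran from -3.15 to -1.67 and 10 of 11 were called, Kif2c missing the threshold (adjusted p 0.0573). Irradiated array means were 1.39 to 1.49 for the dividing-cell markers and -2.74 to -2.21 for the erythroid markers, against 4.21, 3.89 and 2.60 for the erythroid markers in unirradiated spleen. The part that loss of erythroid precursors or of other dividing cells plays in the fall of the mitotic kinesins was not tested.

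The transport kinesins moved mostly the other way and by less. Of 13 tested, 9 were higher, Kif5a alone was lower, and Kif5b, Kif13b and Kif17 did not pass the threshold, beside 28.3% of all genes called higher. The 9 that rose had log2 changes from 0.29 to 2.11, or 1.22-fold to 4.33-fold, with SE from 0.07 to 0.13. In all 9 the irradiated arrays lay above the unirradiated ones, a separation found for 31.7% of all genes. Averaged over the 13 genes, the unirradiated arrays measured -0.99, -0.93 and -0.86 and the irradiated ones -0.33, -0.35 and -0.33. The third unirradiated pool did not stand apart here. It was the lowest of its group in 3 of 13 genes. With the array row as a block 7 of the 13 were higher, and on the first row of the slide alone 6 were. The choice of scale matters for the weaker members. With arrays scaled to spike-in controls the median of all genes moved to -0.34, the transport median fell to 0.24, Kif16b (0.24, adjusted p 0.295) and Kif3b (0.11, adjusted p 0.65) were no longer called, and Kif3c was at 0 (adjusted p 0.995).

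Among the kinesin-3 motors, Kif1a, which carries synaptic vesicle precursors in axons, had the largest rise of the family. It measured -1.69, -1.72 and -1.47 unirradiated and 0.45, 0.39 and 0.62 irradiated. The groups were separate and tight, with a log2 change of 2.11 (SE 0.11, adjusted p 5.94e-05), or 4.33-fold higher. A further Kif1a probe was well above background on all 3 irradiated arrays and on none of the unirradiated ones. It could enter the test only through the irradiated arrays, so its higher call adds no separate support. Spleen samples can carry other tissue, and 7 of 7 exocrine pancreas markers were higher in the irradiated arrays, with array means of -4.97, 3.07 and 0.72 unirradiated and from 6.71 to 7.13 irradiated. On the unirradiated arrays with those pancreas means, Kif1a read -1.69, -1.72 and -1.47 in the same order. Of 6 tested nerve and glia markers, 4 were higher and 1 lower. Their array means ran from -1.85 to -1.57 unirradiated and from -1.14 to -1.01 irradiated. Of 4 tested pancreatic islet markers, 0 were higher and 1 lower. The irradiated arrays lay all above in Ins1 (1.11, adjusted p 0.167), all below in Iapp, and overlapped in 2. Gcg and Sst were too dim to test. Gcg was well above background on 0 unirradiated and 2 irradiated arrays, and Sst on 2 of each group. The part of pancreas or nerve in the Kif1a change was not tested.

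Kif1b, a carrier of mitochondria and synaptic vesicle precursors, measured 1.44, 1.58 and 1.72 unirradiated and 2.55, 2.60 and 2.57 irradiated. It was 2.0-fold higher with separate groups (log2 change 1.0, SE 0.10, adjusted p 0.000272). Kif13a, which moves recycling endosomes and mannose-6-phosphate receptors, measured 1.08, 1.07 and 0.86 against 2.10, 2.12 and 2.10. Its irradiated pools were almost equal (SD 0.01), and its log2 change was 1.11 (SE 0.09, adjusted p 0.000152). Kif16b, which carries early endosomes, rose by less, with a log2 change of 0.52 (SE 0.13, adjusted p 0.0114). With the array row as a block it was not called (0.53, adjusted p 0.0768). Kif13b, a relative of Kif13a that binds the scaffold Dlg1, gave -4.28, -4.41 and -4.04 against -3.94, -4.07 and -4.12. Those groups overlapped (log2 change 0.20, SE 0.12, adjusted p 0.20), though without the third unirradiated pool the change was 0.30 (adjusted p 0.0346).

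Kinesin-2 is a motor of Kif3a with Kif3b or Kif3c and the adaptor Kifap3, and it drives transport in cilia as well as in the cytoplasm. Kif3a measured -0.08, 0.02 and -0.12 unirradiated and 0.86, 0.95 and 1.01 irradiated. Its pools were close within each group, and the rise was 2.0-fold (log2 change 1.0, SE 0.09, adjusted p 0.000174). Kif3b and Kif3c rose by 0.40 (SE 0.08, adjusted p 0.00498) and 0.29 (SE 0.07, adjusted p 0.0152) on the log2 scale, each with separate groups. On the first row of the slide alone neither was called (adjusted p 0.119 and 0.308), and with the row as a block Kif3c was not (0.24, adjusted p 0.145). The Kif3c call was also lost without the second unirradiated pool (0.28, adjusted p 0.0512) and without the second or the third irradiated pool (0.27 each, adjusted p 0.0697 and 0.0713). Kifap3 was the member of the set of kinesin relatives and light chains with the largest rise, 1.29 (SE 0.09, adjusted p 9.11e-05), from between -0.35 and -0.18 to between 0.96 and 1.05. Kif17, a kinesin-2 that works as a pair of identical chains and carries receptors into dendrites, gave -0.69, -0.71 and -1.13 against -0.95, -0.83 and -0.81. The groups overlapped, with a log2 change of -0.02 (SE 0.14, adjusted p 0.927).

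The kinesin-1 heavy chains Kif5a, Kif5b and Kif5c differed in their calls. Kif5c, enriched in neurons, measured -3.83, -3.44 and -3.49 unirradiated and -2.49, -2.50 and -2.35 irradiated, a rise of 1.14 (SE 0.13, adjusted p 0.000449) with separate groups, which was 0.71 with normexp background correction and 0.69 with quantile normalization added. Kif5b, the chain used in most cell types, gave -0.61, -0.61 and -0.53 against -0.52, -0.79 and -0.69. Those groups overlapped, and the log2 change was -0.08 (SE 0.10, adjusted p 0.483). Kif5a, also known from neurons, measured -1.05, -0.84 and -0.56 against -1.74, -1.75 and -1.82 and was the transport kinesin that fell (log2 change -0.95, SE 0.14, adjusted p 0.00126). Its probe is printed 10 times on the array, and SDs between usable spots within an array were 0.05 to 0.09, below the SD of 0.25 between unirradiated pools. A different Kif5a probe was lower as well, by a log2 change of -0.52 (SE 0.14). It was dim, and well above background on only 2 of the 3 irradiated arrays, so the size of that fall is uncertain.

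**Figure D3:**
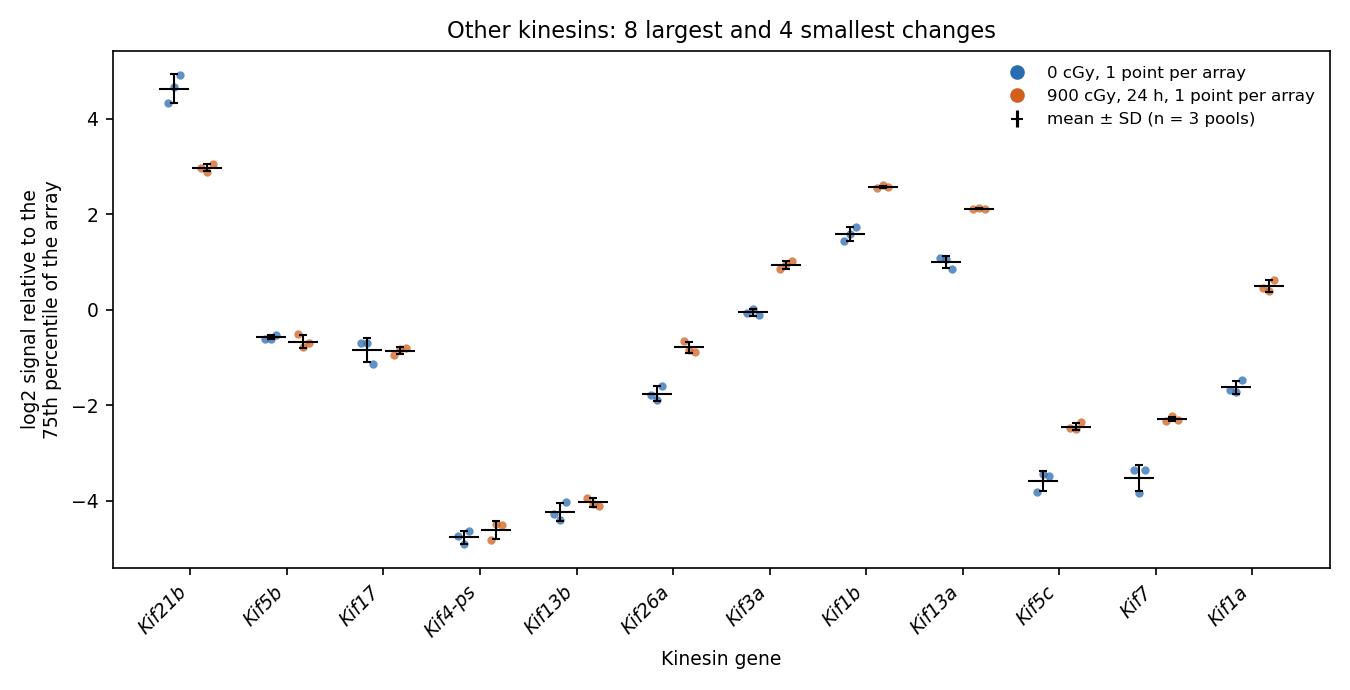
Signal in log2 units with the 75th percentile of each array set to 0 (y axis) for kinesins outside the mitotic class (x axis), the 8 with the largest and the 4 with the smallest log2 change, with 1 point per array, the mean and SD (n = 3 pools). Kif1a rises from between -1.72 and -1.47 to between 0.39 and 0.62, and Kif21b falls from between 4.32 and 4.92 to between 2.89 and 3.04.

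The 12 tested kinesins of other roles had no common direction. Kif7, Kif26a (on its brightest probe) and Kif6 were higher, Kif21b and Kif2a were lower, and 7 did not pass the threshold, a smaller share called than the 59.3% over all genes. Without the third unirradiated pool, 5 were higher, Kif21a and Kif9 joining at 0.33 each (adjusted p 0.0218 and 0.0458). Kif21b, a kinesin-4 that restrains microtubule growth and is known from neurons and T cells, measured 4.32, 4.66 and 4.92 unirradiated and 2.97, 2.89 and 3.04 irradiated. It was 3.17-fold lower with separate groups (log2 change -1.66, SE 0.16, adjusted p 0.000269), and the third unirradiated pool was the highest of its group, unlike in the mitotic kinesins. All 5 B cell markers and 4 of 5 T cell markers were also lower, with array means of 4.05, 4.21 and 4.48 for B cells and 2.28, 2.54 and 2.77 for T cells unirradiated, and at most 1.53 and 0.82 irradiated. The part of lymphocyte loss in the Kif21b change was not tested. Its relative Kif21a did not pass the threshold (log2 change 0.25, SE 0.11, adjusted p 0.0833).

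Kif2a, a kinesin-13 depolymerase that acts at spindle poles and also in cells that do not divide, read 1.0, 1.03 and 0.53 unirradiated and 0.00, 0.15 and -0.06 irradiated. The groups were separate, and the fall of 0.82 on the log2 scale (SE 0.15, adjusted p 0.00418) was 1.77-fold. It was not called on the first row of the slide alone (-0.85, adjusted p 0.0643). Its further probes gave -0.88 and -0.76. Kif24, which acts with Ccp110 and Cep97 to hold back cilium assembly at the centriole, read -2.04, -2.22 and -2.91 unirradiated and -3.50, -3.06 and -2.82 irradiated. The groups overlapped at the third unirradiated pool, and the change of -0.74 (SE 0.27) missed the threshold (adjusted p 0.0551). It passed in 6 of 18 alternatives, among them the one without that pool (-0.99, adjusted p 0.0106), spike-in scaling (-1.02, adjusted p 0.00184) and median scaling (-0.74, adjusted p 0.0341), and adjusted p ranged from 0.00184 to 0.151. Both named partners fell, Ccp110 by 1.11 (SE 0.28, adjusted p 0.0143) and Cep97 by 1.64 (SE 0.09, adjusted p 5.98e-05).

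Kif7, which sits at the tip of the cilium and regulates the Gli factors of Hedgehog signalling, measured -3.37, -3.84 and -3.37 unirradiated and -2.33, -2.23 and -2.32 irradiated. It was 2.35-fold higher with separate groups (log2 change 1.23, SE 0.14, adjusted p 0.000581). Gli1, Gli2 and Gli3 rose by 1.73 (SE 0.20), 1.35 (SE 0.14) and 1.23 (SE 0.13), and Sufu, which restrains them, fell by 0.62 (SE 0.13, adjusted p 0.00655). Stroma, macrophage and endothelium markers moved up beside these genes, in 4 of 4, 6 of 6 and 3 of 4 members, with median log2 changes of 1.51, 2.05 and 1.17. Array means went from 2.11 to 2.49 up to 3.82 to 3.85 for stroma, from 2.13 to 2.41 up to 4.31 to 4.39 for macrophages, and from 0.42 to 0.69 up to 1.48 to 1.62 for endothelium. All 4 adipocyte markers were higher as well, with array means from -2.02 to -1.32 unirradiated and from 2.08 to 2.33 irradiated. Of the duct epithelium markers 3 of 4 were higher (median log2 change 3.11), with array means from -2.83 to -2.17 unirradiated and from -0.02 to 0.29 irradiated, and the 7 exocrine pancreas markers were all higher (median 7.18). The part of these cells and tissues in the rises of the transport kinesins, of Kif7 and of the Hedgehog genes was not tested. Kif6, linked to motile cilia, rose by 0.87 (SE 0.15, adjusted p 0.00305) at low signal. Its values went from between -5.78 and -5.23 to between -4.74 and -4.54. The change was 0.31 with normexp background correction (adjusted p 0.00843), 0.29 with quantile normalization added (adjusted p 0.0109), and not called on the first row of the slide alone (0.78, adjusted p 0.0762). Kif9 (0.26), Kif12 (0.35), Kif19a (-0.24) and Kif26b (0.43) did not pass the threshold, with adjusted p from 0.0841 for Kif9 to 0.534 for Kif26b. Without the second unirradiated pool Kif12 reached 0.54 (adjusted p 0.0116).

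Probes of the same gene mostly gave the same answer. Of 17 kinesins with more than 1 probe, 13 had more than 1 tested probe, and in 11 of these every tested probe had the same call. Kif1a is counted there, though its dimmer probe entered the test only through the irradiated arrays. Kif3a (1.0 and 1.02), Kif1b (1.0 and 0.91), Kif23 (-1.86 and -1.92) and Kif2c (-2.15 and -2.03) had close values on both probes. Kif26a and Kif1c were the exceptions. Kif26a, an atypical kinesin without motor activity, had a brighter probe that rose by 0.96 (SE 0.11), from -1.79, -1.89 and -1.60 to -0.66, -0.84 and -0.89. A dimmer one fell by 1.91 (SE 0.29, adjusted p over probes 0.00168), from -3.81, -3.84 and -4.47 to -6.47, -5.50 and -5.88. That probe was well above background on only 2 of the 3 irradiated arrays, so the size of its fall is uncertain. The probes thus gave opposite calls, and the mean of both fell by 0.47 (adjusted p 0.0173).

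Kif1c, a motor of Golgi and dense-core vesicles, rose by 0.91 (SE 0.13, adjusted p 0.00126) on its brightest probe, from 1.20, 1.14 and 1.56 to 2.29, 2.15 and 2.18. A probe that crosses an intron, since its 60 bases span 1759 bases of the mm9 genome, rose by 2.31 (SE 0.25). The remaining probe had overlapping groups and a change of -0.33 (SE 0.18, adjusted p over probes 0.157). The dimmer Kif26a probe and the intron-crossing Kif1c probe are shown because they read other stretches of the transcripts than the brightest probes do. Coordinates are those of the files, on mm9, with no annotation of that build used here.

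Kif26a, dimmer probe, chr12:113412435-113412494, plus strand: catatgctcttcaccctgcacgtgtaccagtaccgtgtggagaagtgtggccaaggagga
Kif1c, intron-crossing probe, chr11:70539988-70541746, plus strand: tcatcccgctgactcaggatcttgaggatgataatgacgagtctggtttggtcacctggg

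**Figure D4:**
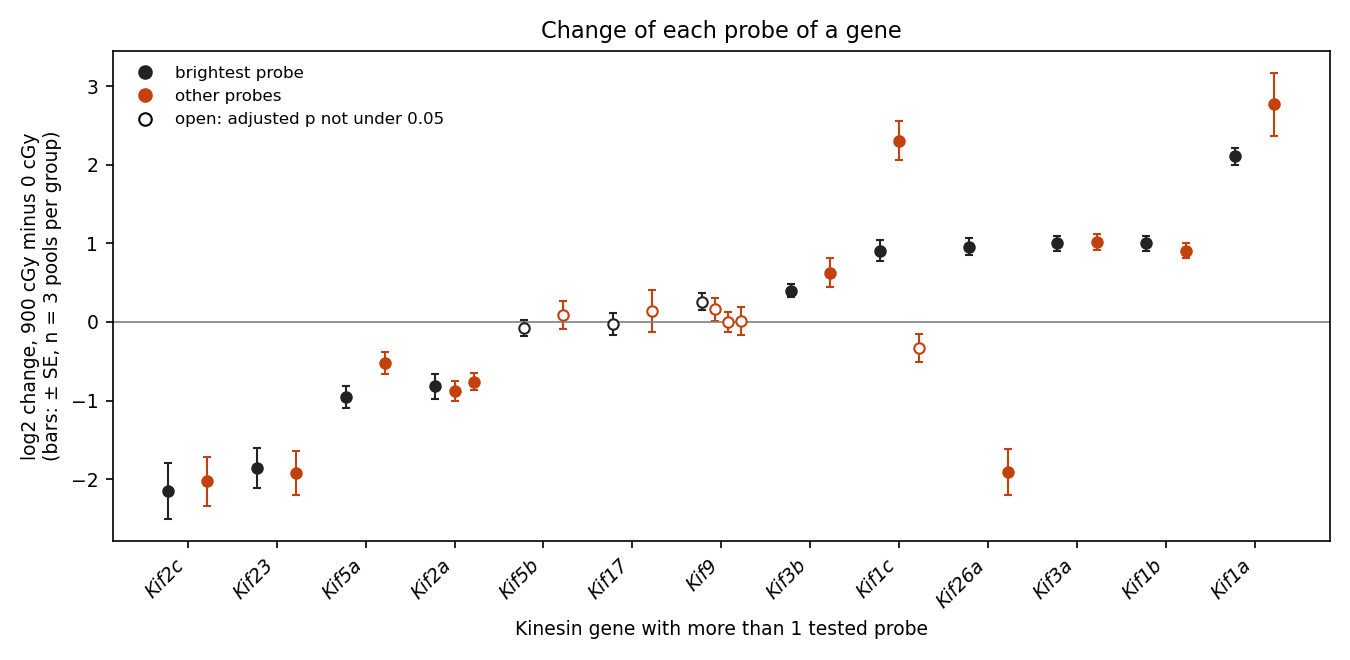
Log2 change (y axis, 900 cGy minus 0 cGy) of each tested probe for the 13 kinesins with more than 1 tested probe (x axis), with bars of ± SE (n = 3 pools per group). Filled points have an adjusted p under 0.05 over probes. The probes of Kif26a lie at 0.96 and -1.91 and those of Kif1c at 0.91, 2.31 and -0.33, while most other genes have probes close together.

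The genes that work with kinesins were compared through lists of known partners. Among 10 tested kinesin relatives and light chains, 4 were higher and 4 lower, beside 28.3% and 31.0% of all genes, with a median log2 change of 0.22. The members with mitotic work fell. They were Cenpe, the kinetochore kinesin (-2.34, SE 0.34, adjusted p 0.00143), and Kifc1, a minus-end motor that focuses spindle poles (-1.96, SE 0.44, adjusted p 0.00852). Kifc5b (-0.89) is a close copy of Kifc1, and their signals may not be separable. Kifap3, Kifc3, Klc1 and Klc4 rose. Klc1 and Klc4 are light chains that link kinesin-1 to cargo, with changes of 0.46 (SE 0.08) and 0.80 (SE 0.10), while the light chain Klc3 fell by 0.56 (SE 0.13) and Klc2 did not pass the threshold (0.28, adjusted p 0.0904).

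Of 19 tested partners of mitotic kinesins, 18 were lower and 0 higher, beside 31.0% and 28.3% of all genes, with a median log2 change of -2.46, close to the -2.43 of the mitotic kinesins themselves. Nusap1, a spindle microtubule bundler, had a log2 change of -3.09 (SE 0.30). Birc5, the survivin subunit of the passenger complex that Kif20a carries, changed by -2.91 (SE 0.42), and Ccnb1, cyclin B1, by -2.76 (SE 0.40). Prc1 and Racgap1, the direct partners of Kif4 and Kif23, had changes of -2.67 (SE 0.39) and -2.19 (SE 0.27). Numa1, which also has work in the interphase nucleus, had a change of 0.01 (SE 0.08, adjusted p 0.897).

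Among 19 tested cargo adaptors of transport kinesins and dynein subunits, 8 were higher, 3 lower and 8 not past the threshold, a share called near the 59.3% of all genes, with a median of 0.14. Trak2, an adaptor that ties kinesin-1 to mitochondria, fell from 2.65, 2.38 and 1.74 to 0.27, 0.17 and 0.13 (log2 change -2.07, SE 0.23, adjusted p 0.000462). Mapk8ip1, an adaptor between kinesin-1 and JNK signalling, rose by 1.39 (SE 0.11, adjusted p 0.000133), and Bicd1, a dynein adaptor, by 0.70 (SE 0.18, adjusted p 0.0142). The count of higher genes was 1 with spike-in scaling, and 5 or 4 without the second or the third irradiated pool. Of 15 cilium and Hedgehog genes, 8 were higher and 5 lower, beside 28.3% of all genes higher and 31.0% lower, with a median of 0.37. Gli1, Cep97 and Gli2 had the largest changes of that list.

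**Figure D5:**
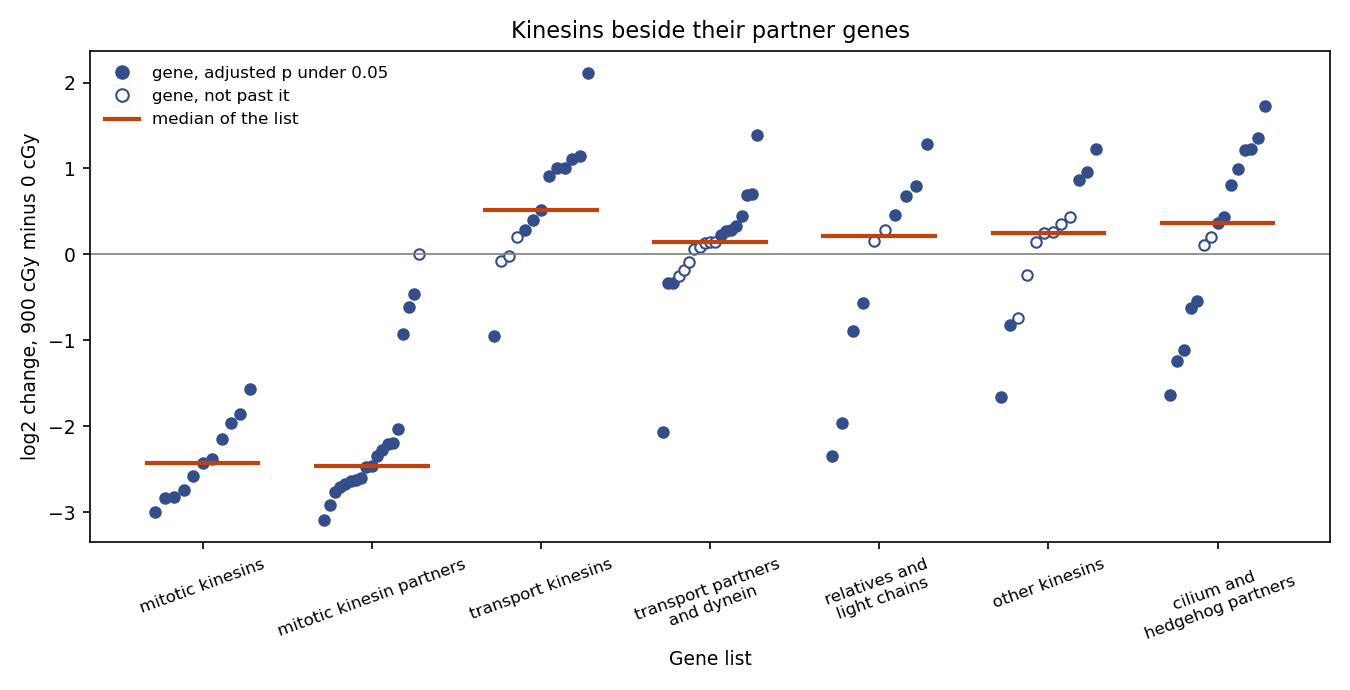
Log2 change (y axis, 900 cGy minus 0 cGy) of each tested gene in the kinesin classes and the lists of partner genes (x axis), with a bar at the median. Filled points have an adjusted p under 0.05. The medians of the mitotic kinesins and of their partners lie at -2.43 and -2.46, and those of the transport kinesins and their partners at 0.52 and 0.14.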

How the data were processed

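RNA from 6 pools of 3 spleens was hybridised to Agilent one-colour arrays. Agilent Feature Extraction 10.5.1.1 read the scans, per the submitters' processing notes and the file headers. Per the file headers, the deposited processed intensity had its background subtracted and spatial trends removed, and weak spots carry a surrogate value, so folds of dim genes are unreliable. The authors' table of log2 values was found to match the 75th-percentile scaling after centring each probe on its median (r from 0.99996 to 0.99998, slopes of 1, same direction), with column medians of 0.0472, -0.00592 and -0.0467 unirradiated and -0.0251, 0.0182 and -0.0082 irradiated. It was used as an alternative source of values.

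Processed intensities were taken as log2 and scaled by subtracting the log2 of the 75th percentile, computed per array over 59305 non-control spots (1166, 1152 and 1403 unirradiated, 1144, 1114 and 1182 irradiated). Between 91 and 146 outlier spots per array were left out and spots of 1 probe averaged. Probes were named through RefSeq GRCm38.p6 for 27235 by accession, 3581 by symbol and 565 by synonym, and 24300 kept the file's name. A gene was represented by its brightest probe and tested when all 3 arrays of at least 1 group had the probe well above background. Irradiated and unirradiated arrays were compared with limma 3.58.1 in R 4.3.3 (lmFit, eBayes, two-sided, Benjamini-Hochberg), tested on simulated data.

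Nothing says that pools came from separate experiments, so p-values measure the spread between these pools. The 3 pools per group limit the precision. Members, role lists, partner lists and markers were chosen with earlier results of these data known, so lists are described by counts and medians without a test. Values per array are given for every tested mitotic kinesin, for the 8 other kinesins with the largest and the 4 with the smallest absolute change, and for a few further genes chosen after their values were seen (Kif5a, Kif1c, Kif2a, Kif24, Trak2). The 3 members of each partner list with the largest change are named, with direct partners of named kinesins. The 100-base promoter window was chosen after seeing the data.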

Additional observations from a re-analysis of the deposited data

How the results depend on the processing

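The count of 11 lower and 0 higher mitotic kinesins held under the alternative background correction, normalizations, scalings, filters, probe rules, left-out pools and blocks, with 1 exception, Kif2c, which was not called on array row 1 alone (-1.81, adjusted p 0.0573). Leaving out each pool gave mitotic medians from -2.89 to -2.16, transport medians from 0.41 to 0.61, differences between those medians from -3.5 to -2.56, 11 to 15 kinesins higher, 14 to 15 lower, 8 to 10 transport kinesins higher, 3 to 5 other kinesins higher and 4 to 8 transport partners higher. The 5 other kinesins higher came without the third unirradiated pool, where Kif21a (0.33, adjusted p 0.0218) and Kif9 (0.33, adjusted p 0.0458) joined. Whether replicate numbers pair the pools is not stated. Correlations of same-numbered pools were 0.07, 0.12 and 0, against -0.14 to 0.07 for pools of different number. With 3 pools per group these values cannot decide it. With the replicate number as a block, 11 kinesins were higher and 14 lower, Kif3c lost its call (adjusted p 0.0571), and 5 transport partners were higher.

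With spike-in scaling, 30.6% of all called genes were higher instead of 47.7%, the transport median was 0.24, other kinesins lower numbered 4, relatives higher 2 and transport partners higher 1, and Kif3c was at 0. Taking for each gene the tested probe least in the direction of its main change gave a transport median of 0.40. By that rule Kif1c changed sign but was not called (-0.33, adjusted p 0.157), and Kif26a was called lower (-1.91). Averaging probes gave -0.47 for Kif26a (adjusted p 0.0173). Array row 1 holds all unirradiated arrays and 1 irradiated array, and row 2 holds irradiated arrays only. With the row as a block, 10 kinesins were higher and 15 lower, and transport partners numbered 3 higher and 1 lower. On row 1 alone, where the lone irradiated array is assumed to vary like the others, counts were 1 for other kinesins lower, 2 higher and 1 lower for relatives, 2 higher and 1 lower for transport partners, and 5 higher and 3 lower for cilium genes. The causes of these shifts were not tested. Row 1 alone also has fewer arrays than the main fit, so array row and array number cannot be told apart there. Of the single genes' values under alternatives, 831 kept their call, 11 gained one, 17 lost one and 4 changed sign, not all of them with a call. Signal over background limits Kif26b and the probes of Kif6.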
